A study of Mus musculus with 6 samples.

Results

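The 10 genes of fatty acid synthesis and desaturation described here were read by name in a table of 17904 mouse genes. They are Acly, Acaca, Mid1ip1, Me1, Fasn, Scd2, Fads1, Fads2, Elovl5 and Elovl6. All 10 of 10 were in the table, and all 10 reached 1 FPKM (mapped fragments scaled by transcript length and library size) in at least 1 library, the minimum met by 11549 genes. The libraries came from bone marrow-derived macrophages of C57BL/6 mice aged 8 weeks, grown for 5 days with the growth factor M-CSF. There were 6 groups with 1 library each: wild type (WT) and Setd2-KO cells at 0 h, and both genotypes after 12 h and 24 h with LPS (lipopolysaccharide, which macrophages sense as a sign of bacteria) at 100 ng/ml. Setd2 encodes a methyltransferase of histone H3. The labels name no allele, no Cre driver and no number of animals for the KO, and nothing in them ties a library to its own animal or culture. Since each group is a single library, the values below carry no replicate error and their differences could not be tested. The series title names lipid metabolism and the resolution of inflammation as the subject.

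Fatty acids are built in the cytosol from acetyl-CoA. ATP citrate lyase (Acly) makes acetyl-CoA from citrate, acetyl-CoA carboxylase (Acaca) converts it to malonyl-CoA, and fatty acid synthase (Fasn) assembles palmitate with NADPH, part of which comes from malic enzyme (Me1). Elongases (Elovl5, Elovl6) lengthen the chains in the endoplasmic reticulum, stearoyl-CoA desaturases (Scd2) make monounsaturated chains, and the desaturases Fads1 and Fads2 act on polyunsaturated chains such as the precursors of arachidonate. Most of these genes are known targets of the SREBP transcription factors, and several respond to the sterol-sensing receptor LXR. In macrophages, unsaturated fatty acids serve membrane lipids and lipid mediators.

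The promoters of 3 of the genes are shown because they hold different letters of the kinds bound by general activators of lipogenic genes. RefSeq's table for GRCm38.p6 held 9 windows for 8 of the 10 genes, and each was read over the 250 bases before the annotated start site. Scd2 and Fads1 had no entry. That of Fasn begins inside the span RefSeq gives for the gene, upstream of the start used in the table. The Acaca window (chr11:84195188-84195437) and 1 of 2 Me1 windows (chr9:86687278-86687527) also lie inside the span of their gene. That Me1 window is the one with CCAAT. Fasn (chr11:120824548-120824797, minus strand) has 3 CCAAT matches, the first base of each lying 90, 62 and 59 bases before the start. Elovl5 (chr9:77917115-77917364, plus strand) has CCAAT matches 71 and 17 bases before it and CACGTG 161 bases before it. Acly (chr11:100528001-100528250, minus strand) has 4 matches to GGGCGG. Each is read 5′ to 3′ along the gene, and capitals mark these matches on either strand.
Fasn: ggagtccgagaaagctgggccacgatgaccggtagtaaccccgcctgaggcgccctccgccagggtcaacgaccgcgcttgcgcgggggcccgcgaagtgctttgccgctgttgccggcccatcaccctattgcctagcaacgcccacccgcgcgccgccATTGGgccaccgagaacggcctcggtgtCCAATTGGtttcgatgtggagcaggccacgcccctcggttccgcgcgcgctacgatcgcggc
Elovl5: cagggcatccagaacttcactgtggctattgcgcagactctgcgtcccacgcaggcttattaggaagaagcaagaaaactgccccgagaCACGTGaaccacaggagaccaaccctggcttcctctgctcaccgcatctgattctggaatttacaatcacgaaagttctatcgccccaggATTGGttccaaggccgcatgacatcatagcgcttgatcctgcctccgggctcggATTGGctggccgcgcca
Acly: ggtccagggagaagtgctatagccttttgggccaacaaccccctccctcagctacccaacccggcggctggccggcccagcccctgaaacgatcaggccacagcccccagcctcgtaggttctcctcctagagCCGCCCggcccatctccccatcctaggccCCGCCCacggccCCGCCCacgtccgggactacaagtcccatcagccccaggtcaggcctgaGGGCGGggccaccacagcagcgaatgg
Of the 9 windows, 3 held CCAAT (the NF-Y box; Fasn, Elovl5 and 1 of 2 Me1 windows) against 33.8% of all 32851 windows of that length. GGGCGG (the GC box) was in 4, against 32.7%, and CACGTG (an E-box) in 1, against 6.02%. TCACNCCAC, a form of the sterol regulatory element, was in 0 of the 9 and in 1.05% of all windows, and TGACNNNGC, the core of the antioxidant response element, was in 0 and in 10.2%. In Fasn a CCAAT on each strand overlaps in the run CCAATTGG. A match is a description of these letters only.

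The libraries were of similar depth, estimated at 21760000 to 22480000 mapped reads from the step size of low FPKM values, if reads were 50 nt long. Setd2 itself (chromosome 9, 110532500 to 110618633) stood at 7.83, 8.68 and 7.51 FPKM in WT at 0, 12 and 24 h and at 9.96, 9.16 and 5.11 FPKM in the libraries labelled KO, so its gene-level value is no check of the genotype, and KO below means the library labelled KO. The macrophage markers Cd68 and Csf1r were at 392 FPKM or more in all libraries and Mertk was at 7.73 to 18.2 FPKM, while Lyz2 was at 3903 to 9015 FPKM in WT and 17.7 to 54.5 FPKM in KO. Of 6 adipocyte markers Plin1 alone was in the table, at 0.02 FPKM or less in each library. Lymphocyte, mast cell and erythroid markers each summed to less than 1 FPKM, stromal markers to 6.60 to 12.7 FPKM, and dendritic cell markers, mostly Ccr7, to 4.63 to 41.9 FPKM. Part of the difference between libraries follows transcript length, with a Spearman rho across 5568 genes of 0.61 at 0 h, 0.16 at 12 h and -0.41 at 24 h between KO minus WT and length, so values with that trend removed are given where they matter. Differences are of log2(FPKM + 1), which understates changes of low genes, and 1 or more in size, which is 2-fold, counts as a call. Ratios of FPKM are given with 95% exact intervals computed from estimated reads, and these cover counting error only.

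Most of the 10 genes were at their highest before LPS and lay lower at 12 h. From 12 to 24 h Scd2, Fads1, Mid1ip1 and Me1 were called higher in WT; of these Me1 was called in KO too, and Fads1 and Mid1ip1 moved upward there without a call. The change in this step differed by a call between the genotypes for Scd2 and Fads2. Me1 was highest at 24 h in both genotypes. The genes are taken in the order of their steps.

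**Figure D1:**
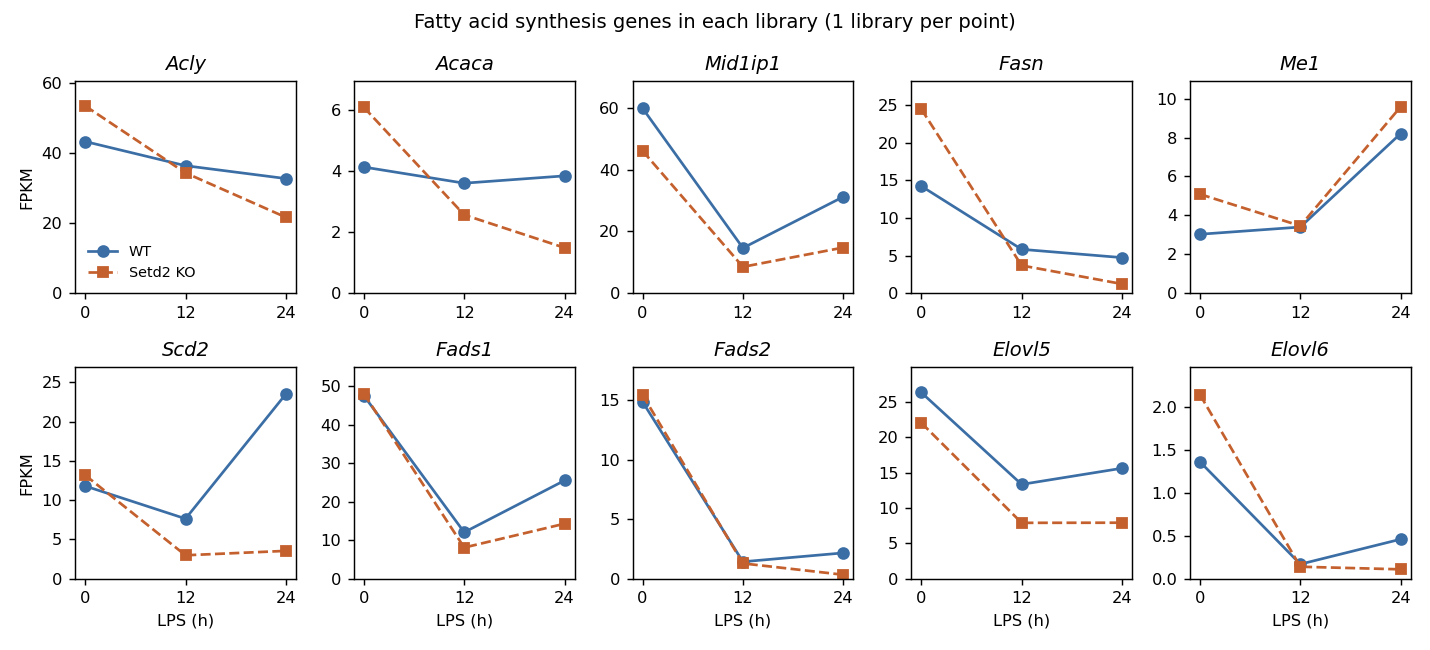
FPKM (vertical axis, from 0) of each of the 10 genes at 0, 12 and 24 h of LPS (horizontal axis) in WT (circles, solid line) and Setd2 KO (squares, dashed line); each point is 1 library and there are no error bars. Scd2 is at 23.5 FPKM in WT and 3.55 in KO at 24 h, and Me1 ends highest in both genotypes.

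Acly (chromosome 11, 100476352 to 100528000), which supplies cytosolic acetyl-CoA, was the steadiest of the set. It stood at 43.3, 36.4 and 32.7 FPKM in WT at 0, 12 and 24 h and at 53.5, 34.4 and 21.7 FPKM in KO. The KO library was above WT before LPS, a difference of 0.3 that became 0.07 with the length trend removed, and below it at 24 h. The 24 h ratio of KO to WT was 0.662 (0.626 to 0.699), a difference of -0.57 that is not called (-0.37 with the length trend removed). Within KO the fall from 0 to 24 h was called (-1.27), but it was -0.93 with the length trend removed and -0.82 with median-of-ratios scaling, both short of a call.

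Acaca (chromosome 11, 84129635 to 84401651), whose product commits acetyl-CoA to fatty acids, hardly moved in WT, at 4.14, 3.61 and 3.85 FPKM. In KO it stood at 6.10, 2.57 and 1.49 FPKM. As FPKM, the KO values lie lower at each later time, while the WT values stay within a narrow range. The transcript is 9026 nt long. With the length trend removed, the KO change from 12 to 24 h went from -0.52 to -0.02. That from 0 to 12 h went from -0.99 to -1.06 in KO and from -0.16 to -0.63 in WT. The KO minus WT difference at 0 h went from 0.47 to 0.02. At 24 h the ratio of KO to WT was 0.387 (0.338 to 0.444), from about 301 and 760 reads, and the difference of -0.96 lay just short of a call (-1.31 with a pseudocount of 0.1, -0.77 with the length trend removed).

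Mid1ip1 (chromosome X, 10717365 to 10719702) encodes a partner protein that promotes assembly of the carboxylase into active filaments. Its WT values were 59.9, 14.6 and 31.2 FPKM and its KO values 46.1, 8.51 and 14.8 FPKM. It fell sharply at 12 h in both genotypes and partly came back in both, and KO was the lower library at each time. The called difference at 24 h (-1.03) was -0.89 with median-of-ratios or trimmed-mean scaling, which is no call.

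Me1 (chromosome 9, 86581363 to 86695914), 1 of several sources of NADPH, went the other way. It stood at 3.03, 3.40 and 8.21 FPKM in WT and at 5.09, 3.46 and 9.59 FPKM in KO. Between 12 and 24 h it rose by 1.07 in WT and 1.25 in KO, 2.41-fold (2.07 to 2.81) and 2.77-fold (2.40 to 3.23) as FPKM ratios. Its KO minus WT difference was 0.20 at 24 h, the 1 positive value of the set at that time.

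Fasn (chromosome 11, 120805958 to 120825166), the synthase itself, lay lower after LPS in both genotypes. WT held 14.2, 5.83 and 4.73 FPKM and KO 24.5, 3.68 and 1.22 FPKM. Before LPS the KO library was the higher, at 1.72 times WT (1.65 to 1.80), a difference of 0.74 that became 0.19 with the length trend removed, as this transcript is 10050 nt long. By 24 h the order had turned, with KO at 0.258 of WT (0.225 to 0.295), a called difference of -1.37 (-1.19 without the length trend). Within KO, Fasn at 24 h was 20.1-fold lower than at 0 h (17.8 to 22.8), against 3.01-fold (2.81 to 3.23) in WT.

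Scd2 (chromosome 19, 44293676 to 44306864), the desaturase that makes oleate-type chains, was the member with the largest genotype difference. In WT it went from 11.8 FPKM to 7.64 at 12 h and 23.5 at 24 h, its highest level of all 6 libraries. In KO it went from 13.2 FPKM to 2.99 and 3.55. The genotypes started close together, and by 12 h KO stood at 0.391 of WT (0.345 to 0.443). The gap widened as WT climbed 3.08-fold from 12 to 24 h (2.85 to 3.32) while KO moved 1.19-fold (1.03 to 1.37). As differences of log2(FPKM + 1) these changes were 1.5 and 0.19, and 1.69 and 0.57 with the length trend removed. At 24 h WT held 6.62 times the KO value (5.99 to 7.35), from about 2795 and 431 reads. Its close relative Scd1 was at 0.36 FPKM or less in every library and Scd3 at 0.38 FPKM or less. How the authors' counting divided reads between these copies was not tested.

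Fads1 and Fads2 lie near each other on chromosome 19 (10182877 to 10196874 and 10062765 to 10101503) and encode the delta-5 and delta-6 desaturases. Fads1 stood at 47.6, 12.1 and 25.5 FPKM in WT and at 48.1, 8.11 and 14.3 FPKM in KO. It came back in both genotypes, called in WT (1.02) and not in KO (0.75). Without the length trend these values were 1.12 and 0.97, the latter just short of a call. Fads2 stood at 14.8, 1.43 and 2.17 FPKM in WT and at 15.4, 1.29 and 0.34 FPKM in KO. Fads2 started close in the genotypes and lost most of its level by 12 h in both. Its change from 12 to 24 h was 0.38 in WT and -0.77 in KO, neither called. At 24 h KO held 0.157 of the WT value (0.0986 to 0.245), from about 24 and 148 reads, so the size of that gap is the less precise of the pair.

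Elovl5 (chromosome 9, 77917365 to 77984519), which extends polyunsaturated chains, stood at 26.3, 13.3 and 15.6 FPKM in WT and at 22.0, 7.90 and 7.92 FPKM in KO. The KO library was lower at each time, with differences of -0.25, -0.69 and -0.90, none called. Elovl6 (chromosome 3, 129532386 to 129638495), which extends palmitate to stearate, reached 1 FPKM in only 2 libraries, both at 0 h. It stood at 1.36, 0.17 and 0.46 FPKM in WT and at 2.14, 0.14 and 0.11 FPKM in KO. With about 60 reads in WT and 15 in KO at 24 h, its ratio of 0.239 (0.129 to 0.436) is below 1 by more than counting error, while its difference of -0.40 is held small by the pseudocount (-1.42 with 0.1).

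Set against each other at 0 h, the genotypes differed by less than 2-fold in each of these genes. Of the 10, 0 were called, where 4.23% of all 11547 genes with a value in both libraries were called in either direction. The median was 0.22, with 8 above 0 and 2 below, and the median of all measured genes was 0.02. With the length trend removed the median was -0.01, and Scd2 (-0.15), Fads1 (-0.13) and Fads2 (-0.04) changed sign. Me1 then kept the largest difference of the set, 0.5 (from 0.6), with KO at 1.68 times WT (1.42 to 2.0) as FPKM. At 12 h the median was -0.44, with Scd2 called lower (-1.11) where 0.727% of all genes were. That call was lost with a pseudocount of 5 (-0.66).

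At 24 h, 4 of 10 were called lower, Scd2, Fasn, Fads2 and Mid1ip1, against 1.93% of 11549 genes called lower. The median was -0.93, beside -0.12 for all measured genes, and -0.81 beside -0.09 with the length trend removed. Median-of-ratios scaling brought the median of all genes to 0.00, moved the calls of all genes from 2.22% higher and 1.93% lower to 2.83% and 1.31%, and left 3 of the 4 called, without Mid1ip1. A pseudocount of 5 left Scd2 alone called. Macrophage markers differed at 24 h too: 3 of 8 were called lower in KO (Itgam, Mertk and Lyz2), with a median of -0.85, and none of the 8 was at 0. Lyz2 was called lower in KO at 0, 12 and 24 h (-8.2, -6.72 and -7.34). Itgam (-1.24) and Mertk (-1.01) were called at 24 h only, and Mertk was at -0.83 with the length trend removed. Without Lyz2 their summed level ranged from 2454 to 4492 FPKM over the WT times and from 2406 to 3643 over the KO times; with it, from 7949 to 13507 and from 2424 to 3697. Of 6 neutrophil markers, 0 were called at 24 h and 1 at 12 h, and their sums were 76.8 to 84.0 FPKM in WT and 38.4 to 65.8 in KO. Of 4 measured stromal markers Dcn was called higher in KO at 24 h (1.46 FPKM in WT, 4.38 in KO, 1.13), and the median was -0.40. The part of these markers in the result was not tested. In bulk RNA, fewer cells that make a transcript and less of it per cell cannot be told apart.

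**Figure D2:**
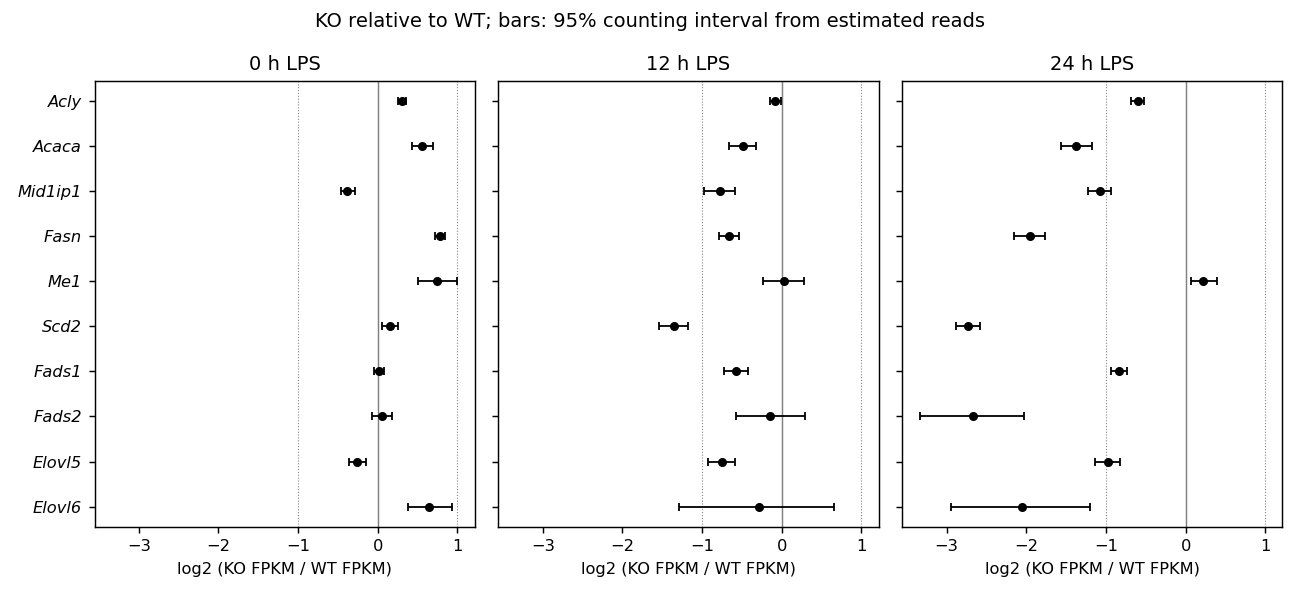
Log2 ratio of KO to WT FPKM (horizontal axis, no pseudocount) for each of the 10 genes at 0, 12 and 24 h; bars are 95% counting intervals from estimated reads and do not hold the spread between cultures, and dotted lines mark 2-fold. At 0 h all points lie inside the 2-fold lines, at 12 h Scd2 lies outside, and at 24 h the intervals of Scd2, Fasn, Fads2, Elovl6 and Acaca lie wholly below the lower line.

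More members were called lower with LPS in KO than in WT. In WT at 12 h, 5 of 10 were called lower (Fads2 by -2.70, Mid1ip1 by -1.96, Fads1 by -1.89, Fasn by -1.16 and Elovl6 by -1.01), against 17.4% of all genes. At 24 h in WT, 2 were called lower, Fads2 (-2.32) and Fasn (-1.41), against 13.9%, and Me1 was called higher (1.19), against 7.65%. In KO at 12 h, 7 were called lower, against 17.5%: the same 5 as in WT with Scd2 (-1.83) and Elovl5 (-1.37). At 24 h in KO, 9 were called lower, every member but Me1, against 21.6%, from -1.27 for Acly to -3.62 for Fads2. The member medians were -0.97 and -0.71 in WT and -1.65 and -1.54 in KO.

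These comparisons with 0 h depend on scaling, since all measured genes had medians of -0.28 and -0.25 in WT and -0.36 and -0.39 in KO. Median-of-ratios scaling brought those to -0.02, 0.00, -0.01 and -0.01, with the share of calls that are lower going from 64.4% to 46.0% (WT, 12 h), 64.5% to 47.7% (WT, 24 h), 67.0% to 44.1% (KO, 12 h) and 74.1% to 48.8% (KO, 24 h). The member counts were then 3 lower in WT at 12 h (Fads1, Fads2 and Mid1ip1), 2 lower and 2 higher in WT at 24 h (Scd2 joining Me1), 6 lower in KO at 12 h, and 7 lower and 1 higher in KO at 24 h (Acly and Elovl5 losing their calls, Me1 gaining one). Of all genes, 11% were called lower with that scaling in WT at 12 h and 9.62% in KO at 12 h. At 24 h, 9.07% were called lower and 9.96% higher in WT, and 12.1% lower and 12.7% higher in KO. Acly and Acaca in WT at 12 h, and Acaca at 24 h, changed sign, to values of 0.07, 0.10 and 0.16.

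**Figure D3:**
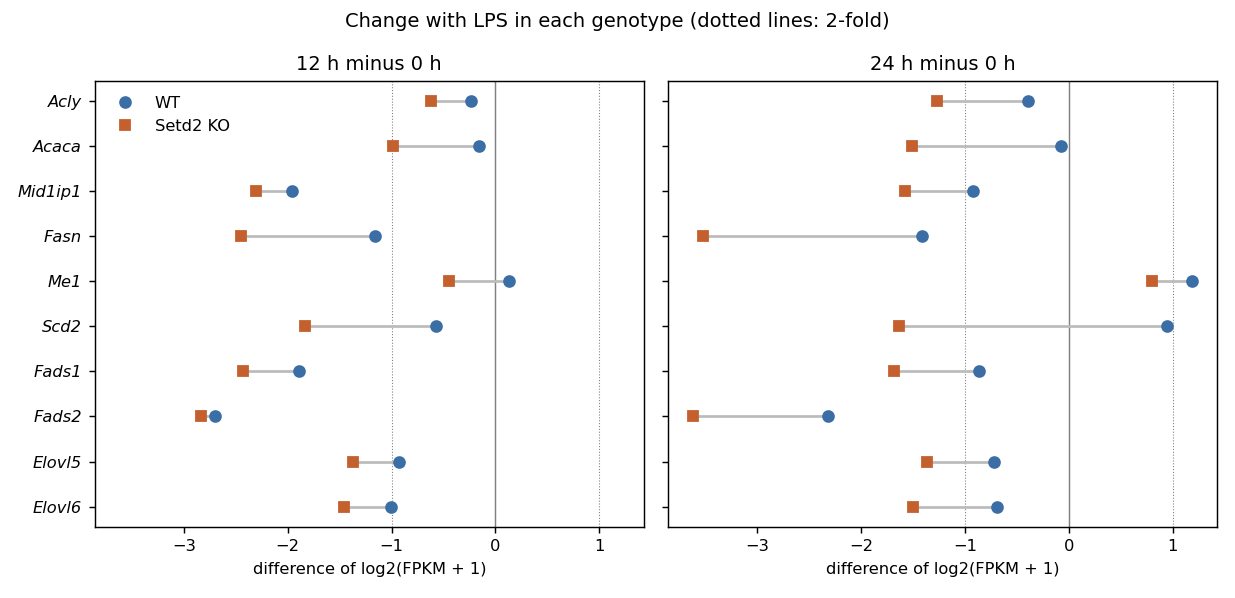
Difference of log2(FPKM + 1) from 0 h (horizontal axis) for each of the 10 genes after 12 and 24 h of LPS, in WT (circles) and Setd2 KO (squares); each point is the difference of 2 libraries and dotted lines mark 2-fold. The KO point lies to the left of the WT point for every gene at both times, and the widest gap is that of Scd2 at 24 h, from 0.94 to -1.64.

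The KO response was the more negative one for all 10 genes at both times, also with the length trend removed. Subtracting the WT response from the KO response at 24 h gave -2.58 for Scd2, -2.11 for Fasn, -1.43 for Acaca and -1.29 for Fads2, so that 4 of 10 were called lower, against 8.63% of all genes called lower and 4.04% higher (6.40% and 6.20% with median-of-ratios scaling). The member median was -0.84 and that of all genes -0.12. In the same comparison the macrophage markers Itgam (-1.70) and Mertk (-1.85) and the stromal markers Col1a1 (-1.38) and Col1a2 (-1.20) were called lower and Dcn higher (1.28), and their part was not tested. Without the length trend Acaca lost its call (-0.79) and Fasn became -1.38. At 12 h the called members were Fasn (-1.29) and Scd2 (-1.26), 2 of 10 against 3.14%, and neither was called without the length trend (-0.79 and -0.96). The 2 times share both 0 h libraries, in which Fasn was higher in KO, so they are not separate evidence.

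The step from 12 to 24 h does not use the 0 h libraries. In WT, 4 of 10 were called higher, Scd2 (1.5), Me1 (1.07), Mid1ip1 (1.04) and Fads1 (1.02), where 1.82% of all genes were. With the length trend removed Mid1ip1 was at 0.99, just short of a call. In KO the called members were Me1 (1.25), against 4.78% called higher, and Fasn, lower by -1.08, against 7.67% called lower; Fasn was at -0.53 without the length trend. Fads1 (0.75) and Mid1ip1 (0.73) moved upward in KO without a call, and Elovl5 stood at 0.00. Without the length trend Fads1 was at 0.97 in KO, Mid1ip1 at 0.62 and Scd2 at 0.57 (from 0.19). The KO change minus the WT change was called for Scd2 (-1.31) and Fads2 (-1.16), 2 of 10 against 1.95%, and both were called without the length trend (-1.12 and -1.13). In sum over the 10 genes, WT went from 226.4 FPKM to 98.5 and back to 148.0, and KO from 236.1 to 73.0 and 75.0.

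The makeup of the set changed along with its level. FPKM is per length, but a trend with transcript length that differs between libraries remains in it. The shares below were not recomputed without that trend, and the ratios hold it unless it is said to be removed. Mid1ip1, Fads1 and Acly were the 3 highest in 5 of the 6 libraries, while in WT at 12 h Elovl5 took the third place from Fads1, and Elovl6 was the lowest in all 6. Acly made up 19.1% of the summed FPKM in WT at 0 h and 37.0% at 12 h, and 22.7% and 47.1% in KO. Scd2 made up 15.9% of the sum in WT at 24 h, its largest share, and 4.74% in KO. Me1 made up 12.8% in KO at 24 h, against 5.55% in WT.

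Ratios between members changed within a genotype over time, and some but not all differed between the genotypes at 24 h. Acly over Fasn was 3.04, 6.25 and 6.92 in WT and 2.18, 9.34 and 17.8 in KO (15.7 to 20.2 at 24 h). With the length trend removed the 24 h values were 6.63 and 15.5. Fads1 over Fads2, 2 transcripts of similar length (3460 and 3150 nt), was 3.20, 8.44 and 11.8 in WT and 3.12, 6.29 and 42.1 in KO, where the 24 h interval runs from 27.8 to 65.1 and that of WT from 9.95 to 14.0. The intervals overlap before LPS and are apart at 24 h. Scd2 over Fasn was 0.829 at 0 h and 4.97 at 24 h in WT, and 0.538 and 2.91 in KO. For the steps next to each other, Acly over Acaca at 24 h was 8.5 in WT and 14.5 in KO (8.21 and 12.9 without the length trend). At 0 h it was 10.5 and 8.77, and 9.1 and 9.39 without that trend, a change of order. Fasn over Acaca was then 1.23 and 0.819. Scd2 over Fads2 was close in the genotypes at 24 h, at 10.8 (9.18 to 12.9) in WT and 10.4 (6.83 to 16.3) in KO. It was apart at 12 h, at 5.34 (4.35 to 6.7) in WT and 2.32 (1.83 to 2.96) in KO, and was 0.795 and 0.855 at 0 h.

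**Figure D4:**
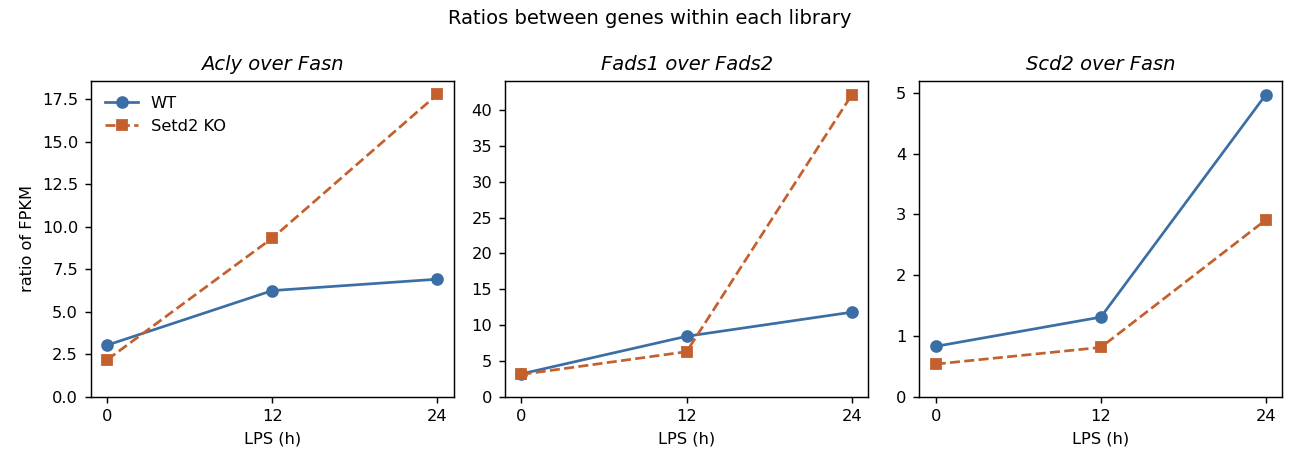
Ratio of FPKM between 2 genes of the same library (vertical axis, from 0) at 0, 12 and 24 h of LPS in WT (circles, solid line) and Setd2 KO (squares, dashed line), 1 library per point. Acly over Fasn and Fads1 over Fads2 end far higher in KO, at 17.8 and 42.1, than in WT, at 6.92 and 11.8.

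Across the 6 libraries, 8 members had a Pearson r of 0.79 to 0.96 with the mean of the other 9, Scd2 had 0.72 and Me1 -0.27. Elovl5 had the highest. The mean centred profile of the 10 genes was 0.72, -0.33 and 0.19 in WT and 0.93, -0.75 and -0.76 in KO on the log2 scale. Among 5021 other genes that reached 5 FPKM and ranged over at least 1 log2 unit, those most like it included Snx14 (r = 0.999), Sort1 (0.994), Snx9 (0.993), Cyb5b (0.993), Uhrf2 (0.992), Tob1 and Man2a2 (0.991 each). Snx14 went from 12.2 FPKM to 7.27 and 9.21 in WT and from 13.2 to 5.74 and 5.55 in KO. Those most like Scd2 were Cd300ld (0.977), Pcyox1 (0.971), Chd3 (0.958), Camk1d (0.935) and Mars (0.933). With 6 libraries and so many genes ranked, such values of r describe shape only.

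Related genes of the pathway were read the same way. Of 13 measured regulators (SREBP processing, LXR and its partner, Mlx and USF), 0 were called in KO against WT at 0, 12 or 24 h. Their medians were 0.07, -0.19 and -0.43. Of all genes, 2.96% were called higher and 1.26% lower at 0 h, 1.32% and 0.727% at 12 h, and 2.22% and 1.93% at 24 h. A count of 0 in so short a list is near those shares. Mlxipl, which encodes ChREBP, was at 0.08 FPKM or less in every library and is not among the 13. At 24 h against 0 h, 5 were called lower in KO (Srebf2, Scap, Insig1, Mbtps1 and Mbtps2) and 1 in WT (Insig1), and with median-of-ratios scaling 3 and 0 were. Of all genes, 21.6% were called lower in KO and 13.9% in WT, and 12.1% and 9.07% with that scaling. The KO change minus the WT change at 24 h was called for Srebf2 (-1.17) and Mbtps2 (-1.05), against 8.63% of all genes called lower. These values became -1.03 and -0.94 with that scaling and -0.67 and -0.64 with the length trend removed. Srebf2 encodes a SREBP and Mbtps2 a protease that releases it. The most abundant were Usf2, Nr1h2 and Nr1h3; Nr1h3, which encodes LXR alpha, rose with LPS at 24 h in WT (23.8 to 73.8 FPKM, 1.59) and in KO (17.4 to 66.1 FPKM, 1.87). The 5 regulators called above and Srebf1 were chosen for naming after their values were seen. At 24 h Srebf2 had 30.6 FPKM in WT against 14.9 in KO (-0.99), and Srebf1 had 22.3 against 13.2 (-0.71).

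Genes for citrate, acetyl-CoA and NADPH supply (9 measured) had medians of -0.04, -0.07 and -0.31 for KO minus WT, and Idh1, the cytosolic NADP-dependent isocitrate dehydrogenase, was the 1 called, lower at 24 h (108.7 FPKM in WT, 47.9 in KO, -1.17). Of all genes, 1.93% were called lower in KO and 2.22% higher at 24 h, 0.727% and 1.32% at 12 h, and 1.26% and 2.96% at 0 h. The counts of 0 in the lists below are near those shares. The pentose phosphate enzymes G6pdx (-0.57) and Pgd (0.33) differed in sign at 24 h, and Cs was at -0.33. Other desaturases, elongases and enzymes of the elongation cycle (10 measured of 17) had medians of -0.09, -0.12 and 0.09, with 0 called; the electron carriers for desaturation, Cyb5a (0.49) and Cyb5r3 (0.35), were above WT at 24 h and Tecr below (-0.44), each without a call. Of 10 acyl-CoA ligase and acyl transfer genes, with medians of -0.07, -0.14 and -0.31, Acsl3 was called lower at 24 h (2.25 and 0.54 FPKM, -1.08). Acsl1, the most abundant, rose with LPS from 13.7 to 211.7 FPKM in WT at 24 h and from 19.1 to 178.4 in KO. Acsl4 and Acsl5 differed between genotypes by -0.36 and -0.23 at 24 h. Carboxylase partners and kinases (10 measured; Akt1, Stk11 and Prkag1 the highest) and mitochondrial fatty acid synthesis (7 measured; Ndufab1, Mecr and Mcat the highest) had 0 called at all 3 times, with 24 h medians of -0.08 and -0.05.

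**Figure D5:**
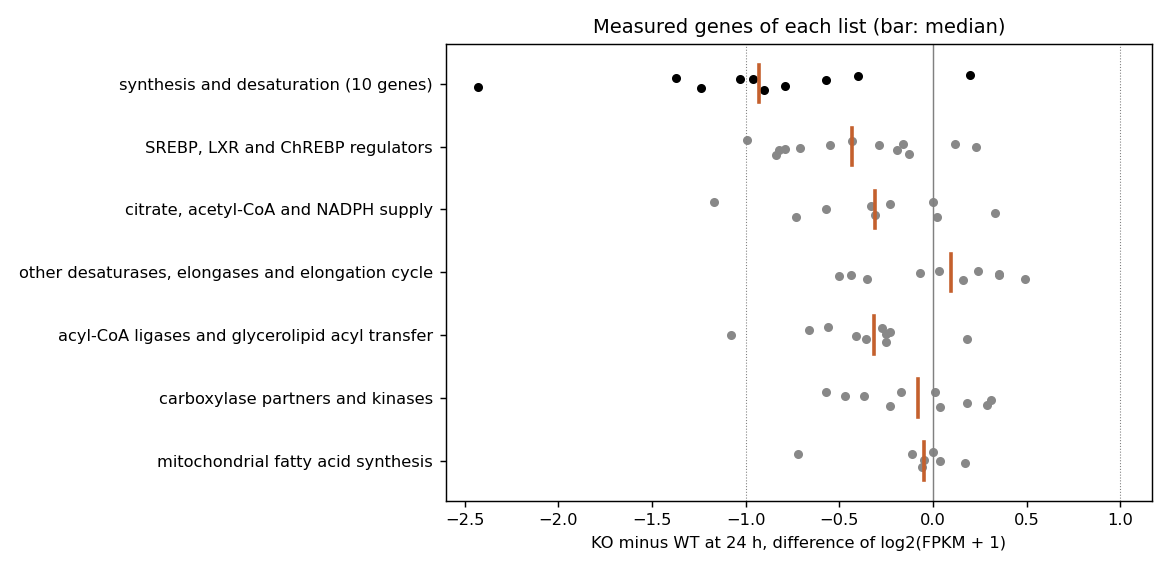
KO minus WT at 24 h of LPS as a difference of log2(FPKM + 1) (horizontal axis) for each measured gene of the 10 and of 6 lists of related genes (rows); each point is a gene in 1 pair of libraries, bars are medians and dotted lines mark 2-fold. The median of the 10 is -0.93, and those of the lists run from -0.43 for the regulators to 0.09 for other desaturases and elongases.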

How the data were processed

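RNA was sequenced from 6 libraries on the BGISEQ-500 platform, per the labels' protocols. The authors deposited FPKM values, named so in the table's header and rounded to 2 decimals; Bowtie2, RSEM and GRCm38 are named in the submitters' processing notes, without versions. Read length is not given in the sources used here. Of 17905 rows, the 1 naming no gene was left out; 25 symbols turned into dates were restored from gene IDs, and 2 cells that are not numbers were read as missing. The 10 genes and all lists were chosen with earlier results of these data known. Comparisons are differences of log2(FPKM + 1), called at 1 or more among genes reaching 1 FPKM in at least 1 library, with no test.

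Named genes were the 10, of each pathway list those called in KO minus WT and the 3 with the highest mean FPKM, and the genes most like the mean profile (8, of which 1 is not reported here) or Scd2 (5). Coordinates are RefSeq's (GRCm38.p6); transcript lengths, from GENCODE M21, covered 99.0% of measured genes. The length trend was a lowess curve (span 0.3) per library over genes averaging 10 FPKM or more. Depth was estimated per library by matching FPKM steps of short transcripts to whole reads, which scored 0.477 to 0.628, against 0.0657 to 0.140 with lengths shuffled. Alternatives were pseudocounts of 0.1 and 5, no minimum or 5 FPKM, 1.5-fold and 3-fold rules, 2 scalings and the length correction; for related lists the scalings and the length correction were added after seeing the data. Scripts (Python 3.11.15, SciPy 1.17.1, statsmodels 0.14.6) were tested on simulated data.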

Additional observations from a re-analysis of the deposited data

Results flagged for a closer look

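Scd2 is listed because its change from 0 to 24 h went up in WT (0.94) and down in KO (-1.64), a difference of -2.58 on the log2(FPKM + 1) scale (-2.09 with the length trend removed). Fads2 is listed because its change from 12 to 24 h went up in WT (0.38) and down in KO (-0.77), a difference of -1.16 (-1.13 with the length trend removed). Each rests on 1 library per group, and the difference itself was not tested.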

How the results depend on the processing

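No paired analysis was possible because each group holds 1 library, and the shared number in the titles pairs nothing. For the same reason no library could be left out. Of the 600 single-gene values recomputed under 5 alternatives, 534 kept their direction and their side of the 2-fold rule, 39 lost a call, 15 gained one and 12 uncalled values changed sign; 0 called values changed sign. The share of all genes called moves with the rule too. For KO minus WT at 24 h it was 1.93% lower and 2.22% higher, and 5.86% and 3.72% with a pseudocount of 0.1. The counts below are of members only and are not set against that share for the pseudocount of 5 or the 1.5-fold and 3-fold rules. The number of the 10 genes called, in either direction, moved as follows. With a pseudocount of 5 it was 0 (from 1) for KO minus WT at 12 h, 1 (from 4) at 24 h, 3 (from 5) and 1 (from 3) for 12 and 24 h against 0 h in WT, 1 (from 4) for 24 h against 12 h in WT, 0 (from 2) for that step in KO, and 0 (from 2), 2 (from 4) and 1 (from 2) for the differences of the 12 h, 24 h and 12 to 24 h changes. With a pseudocount of 0.1 the last was 4, where 5.58% of all genes were called lower and 3.23% higher. A 1.5-fold rule gave 2 (from 0), 3 and 7 for KO minus WT at 0, 12 and 24 h, 8 for 24 h against 0 h in WT, 6 for 24 h against 12 h in KO, and 9 and 4 for the differences of the 24 h and 12 to 24 h changes. A 3-fold rule gave 0 and 1 for KO minus WT at 12 and 24 h, 3, 1 and 0 for the 12 h, 24 h and 12 to 24 h changes in WT, 4 (from 9) and 0 for the 24 h and 12 to 24 h changes in KO, and 0, 2 and 0 for the 3 differences. Both scalings gave 3 (from 5) for 12 h against 0 h in WT. With the length trend removed it was 1 (from 2) for 24 h against 12 h in KO and 0 (from 2) for the difference of the 12 h changes. Neither removing the 1 FPKM minimum nor raising it to 5 FPKM moved a count by more than 1.5 times, though the latter leaves out Elovl6. Low counts limit Fads2 and Elovl6 after LPS.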
